A study of Homo sapiens with 4 samples.

Results

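The cells described here are those with the largest share of UMIs (unique molecular identifiers, 1 per captured RNA molecule) from 5 inflammatory genes in both libraries treated with QTP. In each library, cells with under 20% mitochondrial UMIs were ranked by the summed UMIs of IL1B, CCL5, CXCL8, IL6 and CXCL1 over all UMIs of the cell, and the top 10% were taken. This gave 699 of 6990 cells in the Drug_Radiation library and 380 of 3802 in the Drug library, 1079 of 10792 cells in all, while the whole series holds 16400 cells. Members were set against the other 6291 and 3422 cells of their own library, so that both sides of each comparison shared treatment, library and sequencing run.

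All libraries came from MSTO-211H, a human mesothelioma cell line held as floating cells without serum and labelled mesothelioma-initiating, with a wild-type genotype. Drug_Radiation received 10 µM QTP and 4 Gy, Drug received 10 µM QTP with no radiation, Radiation received 4 Gy, and Control received vehicle only. Cells were harvested 48 h after the radiation time point, dissociated, pooled and strained. Each group is 1 library, so nothing here has a replicate check, no test was made, and all values describe these libraries. Intervals are exact 95% intervals and cover counting error only. No barcode was shared between libraries.

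Inflammatory genes of epithelial and mesenchymal cells are driven mainly by NF-κB, a transcription factor held in the cytoplasm by inhibitors of the IκB family until receptors for interleukin 1, TNF or microbial products are engaged. NF-κB induces its own inhibitors, which close a feedback loop. A separate branch, the type I and III interferon response, runs through factors that include STAT2 and IRF9, and many of its antiviral target genes carry the interferon-stimulated response element in their promoters. CCL5, a chemokine that attracts T cells, is a target of both branches, while IL1B, CXCL8, IL6 and CXCL1 are known mainly as NF-κB targets. Dividing cells express a further programme of G2 and mitosis genes, which is low in arrested cells.

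The members' ranking values are a description of the choice and not a result. The last member and the first cell outside had 134.3 and 134.2 ranking UMIs per 1000000 UMIs of the cell in Drug_Radiation, and 129.97 and 129.89 in Drug. The last member of Drug held 1 ranking UMI among 7694, and 30 members of Drug_Radiation and 27 of Drug were in by a single ranking UMI. CCL5 was the ranking gene with the most UMIs in 401 members of Drug_Radiation (57.4%) and in 195 of Drug (51.3%). IL1B led in 180 members of Drug_Radiation (25.8%) and in 111 of Drug (29.2%). To describe how the ranking genes went together, each of the 5 genes was left out of the ranking in turn. The level of the left-out gene in the cells chosen by the other 4 was 1.81 to 11.9 times that of the rest in Drug_Radiation. In Drug it was 2.89 to 30.0 times. These values come from the ranking genes themselves and are no separate support for the label. The cells so chosen were also not all members: without CCL5, 353 of 699 in Drug_Radiation and 226 of 380 in Drug were. Over all cells the 5 genes summed to 62.2 UMIs per 1000000 nuclear-encoded UMIs (CPM) in Drug_Radiation, 69.3 in Drug, 38.6 in Radiation and 38.3 in Control. The median depth was 18024.5 UMIs per cell in Drug_Radiation and 20405 in Drug, against 5299 in Radiation and 2318 in Control, so QTP, depth and library batch cannot be told apart in that order.

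Members did not stand apart in depth. Their median was 17553 UMIs per cell against 18074 in the other cells of Drug_Radiation, and 20186 against 20425 in Drug. With each cell thinned to 6000 UMIs, members showed a median of 2085 genes against 2008 in Drug_Radiation and 2255.5 against 2169 in Drug. The median mitochondrial share was 5.23% in members against 5.17% in the other cells of Drug_Radiation, and 3.91% against 4.02% in Drug. Of 26 leukocyte and macrophage markers, 25 were under 1 CPM in members of Drug_Radiation and 23 in members of Drug, and their sum, mostly CD68, was 47.6 CPM in members against 43.0 CPM in other cells of Drug_Radiation and 56.6 CPM in members against 43.5 CPM in Drug. In Drug, CD74 had 1.42 CPM in members against 0.551 CPM in other cells, from 13 UMIs in members, and HLA-DRB1 had 1.53 CPM against 0.448 CPM, from 14 UMIs. Of 9 endothelial markers 5 were under 1 CPM in members of each library. The part of such cells in the results was not tested.

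Levels below are UMIs of a gene summed over a group of cells and given as CPM of that group. A gene was tested when it reached 5 CPM over all cells of both libraries, which 9852 genes did, and it was called when the ratio of CPM plus 1 passed 1.5-fold. Members count in that filter. CCL26 and SERPINA3 were under 5 CPM in other cells of both libraries and passed only through their level in members. The same held for TNFAIP3 and AIM2 in Drug_Radiation, and for THBS1 and FOS in Drug. These genes are examples. For such genes the filter favoured higher calls. In Drug_Radiation 99 genes were called higher in members (1.0%) and 26 lower (0.264%). In Drug 284 were higher (2.88%) and 96 lower (0.974%). Called in both were 81 genes higher (0.822%) and 22 lower (0.223%). The 81 are 81.8% of the higher calls of Drug_Radiation and 28.5% of those of Drug, and the 22 are 84.6% and 22.9% of the lower calls. The median log2 ratio over all genes was 0.06 with an SD of 0.18 in Drug_Radiation and 0.08 with an SD of 0.26 in Drug. Scaling by the TMM method moved all ratios down by 0.11 and 0.16 (log2), and the calls in both libraries were then 49 higher and 45 lower. With median-of-ratios scaling, which moved them by 0.11 and 0.17, 48 were higher and 48 lower. Both shifts are smaller than the size for a call, so no called gene changes direction with them. Counts below are at the first scaling, and list medians are set against the median of all genes.

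Of the 81 genes higher in both libraries, 24 were on lists of interferon response genes (13), other cytokines and chemokines (4), other NF-κB targets (4) and NF-κB subunits and feedback genes (3). Of the 22 genes lower in both, 14 were G2 and M phase genes. No inflammatory gene was among the 22, and no G2 and M phase gene was among the 81. Of the 9852 tested genes, these lists held 31, 9, 15 and 22 in the order above, and the G2 and M phase list 42. With lists this small, such absences say little.

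**Figure D1:**
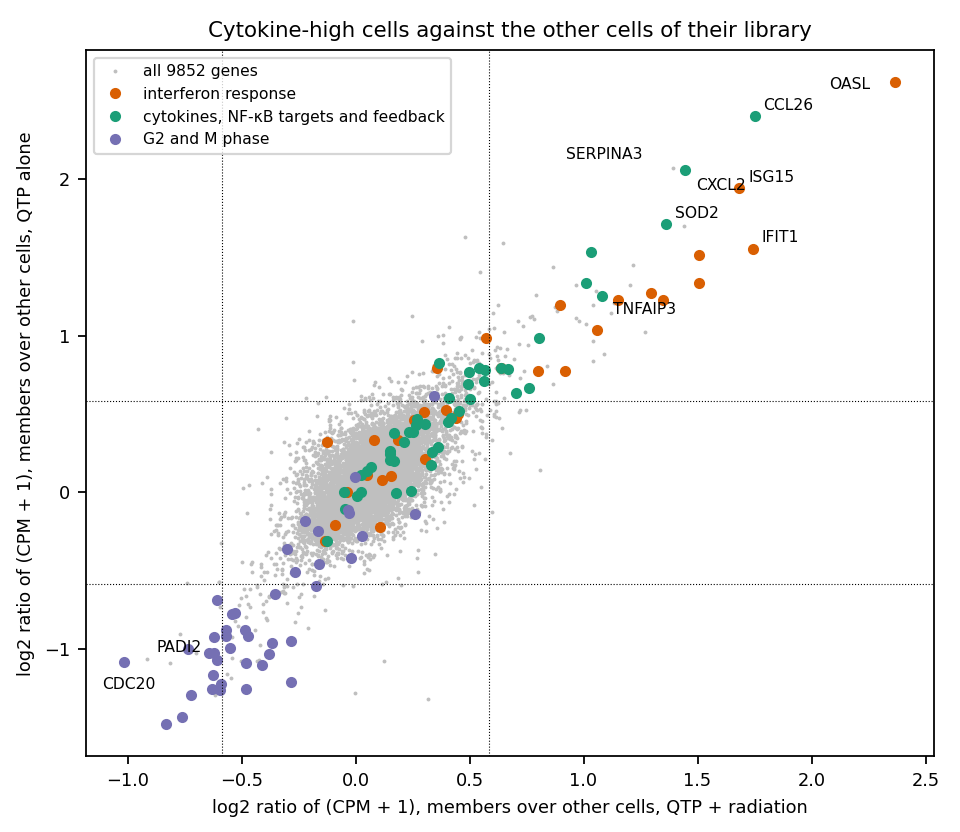
Log2 ratio of CPM plus 1 of members over other cells in Drug_Radiation (horizontal axis) and in Drug (vertical axis) for 9852 genes (grey), with interferon response genes in orange, cytokines and NF-κB genes in green and G2 and M phase genes in purple. Dotted lines mark 1.5-fold. OASL lies farthest up at 2.37 and 2.62, CDC20 lies at −1.01 and −1.09, and 38 of the 42 purple points lie below 0 in both libraries.

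The regions before the start sites of the highest-ranked genes that had an entry in the RefSeq promoter table are shown because these genes lead both libraries and fall into interferon-induced genes (ISG15, IFIT1, HERC5) and chemokines (CCL26, CXCL2). The 250 bases before each start are given 5′ to 3′ in the direction of the gene on GRCh38.p14. Capitals mark matches on either strand to the core of the interferon-stimulated response element (GAAA, any 2 bases, and GAAA again) or to the NF-κB consensus. Overlapping matches were each counted.
CCL26 is the window chr7:75789747-75789996 (minus strand).
CCL26: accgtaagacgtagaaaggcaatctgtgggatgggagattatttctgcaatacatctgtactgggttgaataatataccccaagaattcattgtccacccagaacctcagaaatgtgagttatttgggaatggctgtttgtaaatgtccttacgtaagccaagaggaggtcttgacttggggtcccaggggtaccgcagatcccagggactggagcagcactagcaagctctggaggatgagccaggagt
ISG15 is the window chr1:1013247-1013496 (plus strand).
ISG15: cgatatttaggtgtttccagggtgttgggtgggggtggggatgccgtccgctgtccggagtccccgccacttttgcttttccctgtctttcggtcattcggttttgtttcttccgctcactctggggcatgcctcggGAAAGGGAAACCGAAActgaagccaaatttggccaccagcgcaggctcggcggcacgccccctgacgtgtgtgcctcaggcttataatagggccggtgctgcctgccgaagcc
IFIT1 is the window chr10:89392373-89392622 (plus strand).
IFIT1: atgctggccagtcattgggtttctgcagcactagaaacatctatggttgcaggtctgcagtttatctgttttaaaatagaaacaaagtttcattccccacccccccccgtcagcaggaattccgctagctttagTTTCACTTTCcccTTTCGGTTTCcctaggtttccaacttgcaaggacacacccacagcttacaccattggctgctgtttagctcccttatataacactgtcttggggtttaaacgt
HERC5 is the window chr4:88456869-88457118 (plus strand).
HERC5: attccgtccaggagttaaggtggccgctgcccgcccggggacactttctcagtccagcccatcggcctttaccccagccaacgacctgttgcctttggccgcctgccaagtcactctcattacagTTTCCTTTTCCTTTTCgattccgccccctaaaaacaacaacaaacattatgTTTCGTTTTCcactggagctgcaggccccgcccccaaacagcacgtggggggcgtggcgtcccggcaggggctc
CXCL2 is the window chr4:74099196-74099445 (minus strand).
CXCL2: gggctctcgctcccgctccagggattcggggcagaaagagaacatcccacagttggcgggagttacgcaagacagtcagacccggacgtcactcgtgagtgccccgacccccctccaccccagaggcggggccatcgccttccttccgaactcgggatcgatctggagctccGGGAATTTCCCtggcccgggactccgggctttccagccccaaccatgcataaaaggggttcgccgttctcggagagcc
The interferon element occurred 2 times in ISG15 and IFIT1 and 3 times in HERC5, some of them overlapping. The NF-κB consensus occurred 2 times, in overlapping positions, in CXCL2. Neither was found in the CCL26 window. Over all 27305 promoters of the table, 3.07% held the interferon element and 5.05% the NF-κB consensus in the same 250 bases. A match is a description of the letters and not a site of binding. The share over the 81 higher genes is void and not given, since only 62 of them (under 80%) had a promoter in the table.

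Of the 31 interferon response genes that passed the filter, 13 were called higher in both libraries and none lower, the most higher calls of any list. OASL, an antiviral protein related to the 2′-5′-oligoadenylate synthetases, had 97.5 CPM in members against 18.1 CPM in other cells of Drug_Radiation, a ratio of 5.39 (95% interval 5.04 to 5.77). In Drug it had 84.1 CPM in members against 12.9 CPM in other cells, a ratio of 6.54 (5.95 to 7.19). ISG15, a ubiquitin-like protein attached to other proteins after interferon, had 285 CPM in members against 88.0 CPM in Drug_Radiation, a ratio of 3.23 (3.12 to 3.35). In Drug it stood at 291 CPM in members against 75.1 CPM, a ratio of 3.88 (3.70 to 4.06). IFIT1, which binds foreign RNA, had a ratio of 3.67 (3.25 to 4.15) in Drug_Radiation and 3.14 (2.72 to 3.61) in Drug. HERC5, the ligase that attaches ISG15, had 3.10 (2.72 to 3.52) in Drug_Radiation and 3.16 (2.65 to 3.76) in Drug. DDX60, a helicase that is on none of the lists, had 2.83 (2.57 to 3.10) in Drug_Radiation and 3.42 (3.04 to 3.84) in Drug, and its reads may be shared with its near copy. For all 5 genes the interval lay above 2-fold in both libraries.

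IFIT2, IFIT3, IFI44 and DDX58, which encodes the RNA sensor RIG-I, had ratios of 2.93, 2.59, 2.57 and 2.33 in Drug_Radiation and 2.59, 2.37, 2.49 and 2.44 in Drug. ISG20, an RNA exonuclease, IFI6, OAS1, SAMD9 and MX2 completed the 13 called interferon genes, at 1.62 to 2.10 times in Drug_Radiation and 1.74 to 2.31 times in Drug. The list had 46 genes in all. The median log2 ratio of these 31 was 0.44 in Drug_Radiation and 0.53 in Drug, which is 0.38 and 0.44 above that of all genes. STAT2 and IRF9, factors that carry the interferon signal, were not past 1.5-fold, with log2 ratios of 0.25 and 0.08 in Drug_Radiation and 0.46 and 0.33 in Drug. IRF1, a further interferon-induced factor, was at 0.34 in Drug_Radiation and 0.26 in Drug. IFITM2 and IFITM3, abundant membrane proteins of the same response, had log2 ratios of −0.14 and 0.11 in Drug_Radiation and −0.31 and 0.08 in Drug. The genes of interferons themselves on the list, IFNB1, IFNL1, IFNL2 and IFNL3, did not pass the filter.

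Among other cytokines, CCL26, an eotaxin known as a target of interleukin 4 and 13, had 18.8 CPM in members against 4.88 CPM in other cells of Drug_Radiation, a ratio of 3.85 (3.32 to 4.45). The Drug members had 22.7 CPM of it against 3.48 CPM, a ratio of 6.51 (5.40 to 7.82). CCL26 passed the filter only through its level in members. CXCL2, a neutrophil chemokine, stood at 28.5 CPM in members against 9.82 CPM in other cells of Drug_Radiation, a ratio of 2.90 (2.59 to 3.25). In Drug it stood at 57.8 CPM in members against 13.1 CPM, a ratio of 4.40 (3.95 to 4.89). CXCL2 is a near copy of CXCL1, one of the ranking genes, and the counting could split their reads, so its value is uncertain. IL1A, the alarmin form of interleukin 1, had ratios of 2.15 in Drug_Radiation and 3.07 in Drug. CCL2, a monocyte chemokine, had 1.62 in Drug_Radiation and 1.82 in Drug. Only 9 of 38 genes on this list passed the filter. CSF1, a macrophage growth factor, CXCL16, a membrane-bound chemokine, and LIF, of the interleukin 6 family, were not past 1.5-fold in both. Their log2 ratios were 0.57, 0.49 and 0.25 in Drug_Radiation and 0.78, 0.69 and 0.38 in Drug. IL32, an inflammatory cytokine, stood at 796 CPM in members against 793 CPM in other cells of Drug_Radiation, and at 836 CPM in members against 851 CPM in Drug. MIF, a constitutive cytokine, had log2 ratios of −0.05 in Drug_Radiation and −0.11 in Drug.

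Of the NF-κB genes, 4 of 15 other targets and 3 of 22 subunits and feedback genes were called higher in both libraries. SOD2, the mitochondrial superoxide dismutase and a standard NF-κB target, had 259 CPM in members against 100 CPM in other cells of Drug_Radiation, a ratio of 2.59 (2.49 to 2.68). SOD2 in Drug stood at 340 CPM in members against 103 CPM, a ratio of 3.29 (3.16 to 3.43). TNFAIP3, the deubiquitinase A20 that ends NF-κB signalling, had 10.8 CPM in members against 4.56 CPM in Drug_Radiation, a ratio of 2.36 (1.96 to 2.83). In Drug it had 15 CPM in members against 5.73 CPM, a ratio of 2.62 (2.15 to 3.18). ICAM1, an adhesion protein for leukocytes, had ratios of 2.06 in Drug_Radiation and 2.59 in Drug. NFKBIA, the inhibitor IκBα, had 1.65 in Drug_Radiation and 1.57 in Drug, and BIRC3, an antiapoptotic ubiquitin ligase, 1.73 in Drug_Radiation and 1.61 in Drug. The subunits RELB, NFKB1, RELA and REL had log2 ratios of 0.56, 0.26, 0.21 and −0.12 in Drug_Radiation and 0.71, 0.43, 0.32 and −0.31 in Drug. C3, complement component 3, and CD82, a tetraspanin, were the remaining called targets. The median log2 ratio of the 15 other targets was 0.42 in Drug_Radiation and 0.60 in Drug, and that of the 22 subunits and feedback genes 0.24 in Drug_Radiation and 0.31 in Drug. For the 13 receptors and adaptors of interleukin 1, TNF and toll-like signals it was 0.20 in Drug_Radiation and 0.28 in Drug, with none called in both.

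**Figure D2:**
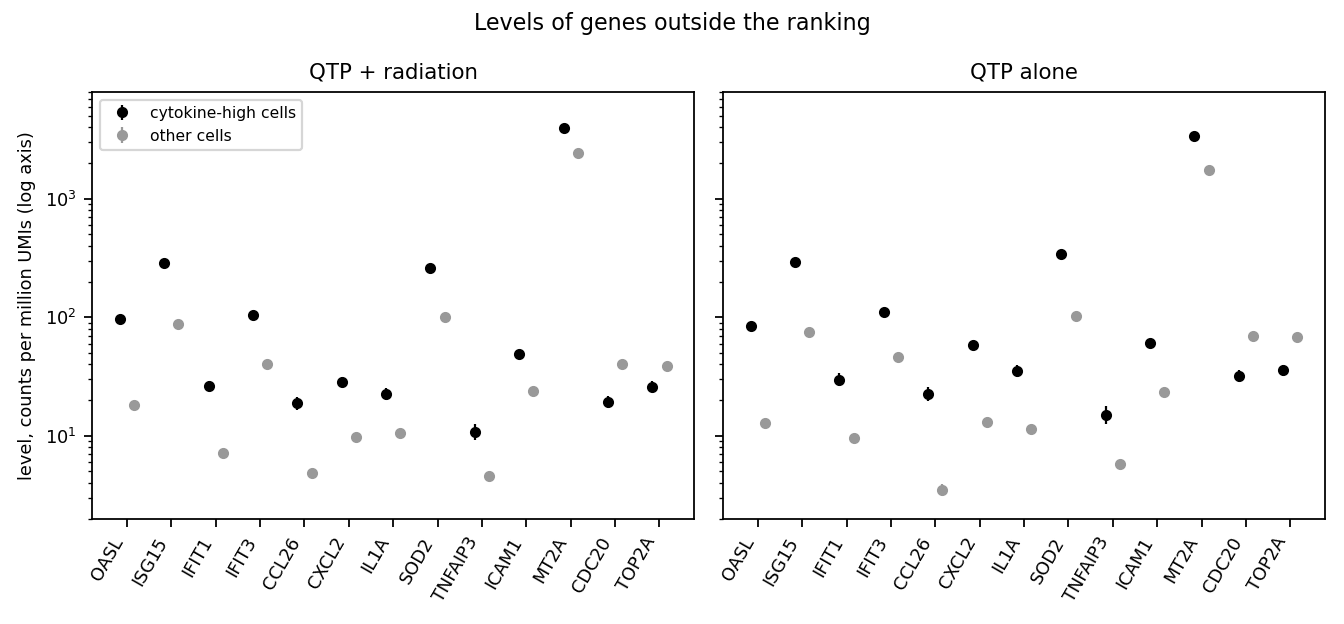
Level of 13 genes in CPM (log axis) in members (black) and other cells (grey) of Drug_Radiation (left) and Drug (right), with exact 95% Poisson intervals where these exceed the symbol. All genes but CDC20 and TOP2A are higher in members of both libraries, and the ranking genes are not drawn.

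Genes of secreted proteins and the matrix were also called, 4 of 20 on the secretome list and 4 of 31 on the matrix list in both libraries. SERPINA3, an acute-phase protease inhibitor on no list, had 13.2 CPM in members against 4.40 CPM in Drug_Radiation, a ratio of 2.99 (2.52 to 3.54). For Drug the values were 20.9 CPM in members against 4.21 CPM, a ratio of 4.96 (4.13 to 5.95). SERPINA3 also passed the filter only through its level in members. ITGA2, an integrin that binds collagen, had ratios of 2.37 in Drug_Radiation and 2.80 in Drug. INHBA, an activin subunit, had 1.77 in Drug_Radiation and 2.49 in Drug. IGFBP3, which binds insulin-like growth factors, and FGF2, a growth factor that was also added to the medium as protein, were also called on the secretome list. The 20 tested genes of that list had a median log2 ratio of 0.49 in Drug_Radiation and 0.60 in Drug. FN1, fibronectin, had ratios of 2.02 in Drug_Radiation and 2.25 in Drug, and LOX, a collagen cross-linking enzyme on the hypoxia list, 1.70 in Drug_Radiation and 2.19 in Drug. The 31 genes of the matrix list had a median of 0.22 in Drug_Radiation and 0.32 in Drug. Fibroblast markers as a whole summed to 177 CPM in members against 130 CPM in Drug_Radiation, and to 210 CPM in members against 139 CPM in Drug. Of the 11 markers, 4 (PDGFRA, PDPN, DPT and MFAP5) were under 1 CPM, 5 passed the filter with a median log2 ratio of 0.54 in Drug_Radiation and 0.53 in Drug, and the part of such cells in these results was not tested. Metallothioneins, small metal-binding proteins, were among the most abundant called genes. MT2A had 3973 CPM in members against 2420 CPM in Drug_Radiation, a ratio of 1.64 (1.63 to 1.66). MT2A in Drug stood at 3400 CPM in members against 1764 CPM, a ratio of 1.93 (1.90 to 1.95). MT1X had ratios of 1.96 in Drug_Radiation and 2.51 in Drug, and its near copies could share reads.

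Other lists were shifted with few calls. Of 36 lysosome and autophagy genes, 30 lay above the all-gene median in both libraries, and the list median was 0.19 above it in Drug_Radiation and 0.26 in Drug. The 28 integrated stress response genes, which follow the factor ATF4, had a median of 0.32 in Drug_Radiation, where 1 was called, and 0.54 in Drug, where 11 were. WARS1, a tRNA synthetase also induced by interferon γ, was the gene called in both, at 1.80 times in Drug_Radiation and 1.76 times in Drug. DDIT3, the stress factor CHOP, had log2 ratios of 0.46 in Drug_Radiation and 0.99 in Drug. HLA-B and B2M, parts of the MHC class I complex, had 0.42 and 0.40 in Drug_Radiation and 0.49 and 0.47 in Drug, and none of 19 antigen presentation genes was called in both. The 29 p53 targets had a median of 0.01 in Drug_Radiation and 0.18 in Drug, with none called in both. CDKN1A, which encodes p21 and halts the cell cycle, stood at 481 CPM in members against 477 CPM in Drug_Radiation, and 431 CPM in members against 351 CPM in Drug. All 75 ribosomal protein genes and 60 of 63 respiratory chain genes lay below the all-gene median in both libraries, with list medians 0.12 below it in Drug_Radiation and 0.15 and 0.20 below it in Drug. Of 24 cholesterol synthesis and uptake genes, 21 lay below it in both.

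**Figure D3:**
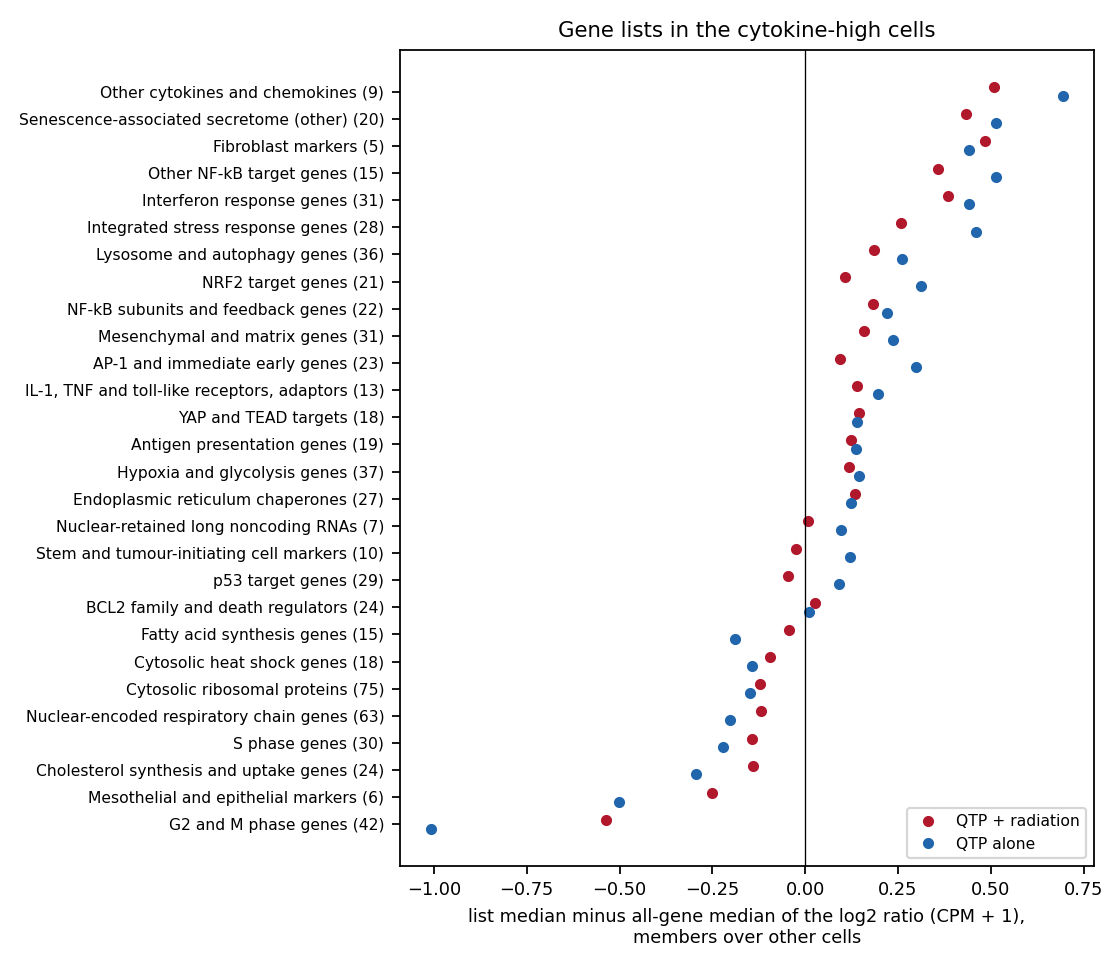
Median log2 ratio of each gene list in members over other cells, less the median over all genes, in Drug_Radiation (QTP + radiation, red) and Drug (QTP alone, blue). Brackets give the number of genes that passed the filter, from 5 to 75, and lists with fewer than 5 are not drawn. Cytokines, secretome, fibroblast marker, NF-κB target and interferon lists are at the top and G2 and M phase genes at the bottom, at −0.54 and −1.01.

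Of 42 G2 and M phase genes that passed the filter, 14 were called lower in Drug_Radiation and 30 in Drug, 14 of them in both. These calls depended on IL1B in the ranking: without it 2 were called lower in Drug_Radiation and 9 in Drug, and with CCL5 alone 0 and 5. With the ranking on cells thinned to 6000 UMIs they were 6 in Drug_Radiation and 26 in Drug, and without CCL5 28 and 32. The list median was below 0 in both libraries under each of these rankings. CDC20, which activates the anaphase-promoting complex, had 19.4 CPM in members against 40.1 CPM in other cells of Drug_Radiation, a ratio of 0.483 (0.426 to 0.545). In Drug it had 31.9 CPM in members against 68.8 CPM, a ratio of 0.463 (0.410 to 0.521). KIF20A, a mitotic kinesin, had ratios of 0.521 (0.410 to 0.654) in Drug_Radiation and 0.332 (0.260 to 0.418) in Drug. CDCA3, a cell division regulator, PRC1, which bundles spindle microtubules, HMMR and the kinase PLK1 had ratios of 0.571, 0.568, 0.552 and 0.617 in Drug_Radiation. In Drug these were 0.352, 0.476, 0.367 and 0.390. A single gene, 1 of 42, was called higher in Drug. The list median was −0.48 in Drug_Radiation and −0.92 in Drug. The S phase list had a median of −0.09 in Drug_Radiation and −0.14 in Drug, with 1 of 30 genes called lower in Drug and none in Drug_Radiation. Cells in which G2 and M phase genes made up 1% of UMIs or more were 2 of 699 members (0.286%, 95% interval 0.0347 to 1.03) against 56 of 6291 other cells (0.890%, 0.673 to 1.15) in Drug_Radiation. In Drug they were 3 of 380 members (0.789%, 0.163 to 2.29) against 138 of 3422 (4.03%, 3.40 to 4.75). Lower genes on no division list included PADI2, a peptidylarginine deiminase, FGFBP1, a carrier of fibroblast growth factors, and ITGB4, an integrin of hemidesmosomes. Their ratios were 0.524, 0.569 and 0.604 in Drug_Radiation and 0.471, 0.520 and 0.481 in Drug. KRT18, an epithelial keratin, had 1927 CPM in members against 2782 CPM in Drug_Radiation, and 1692 CPM in members against 2987 CPM in Drug. Its partner KRT8 had 1682 CPM in members against 2316 CPM in Drug_Radiation, and 1391 CPM in members against 2312 CPM in Drug. Both passed 1.5-fold in Drug only, the difference between libraries was not tested, and keratin gene copies could share reads. They are 2 of 6 tested genes on the mesothelial and epithelial list. Of the others, CALB2 was lower in members of both libraries. CLDN1 was higher, at 55.5 CPM in members against 50.8 CPM in Drug_Radiation and 67.2 CPM against 56.4 CPM in Drug. MSLN and BAP1 differed in direction between the libraries.

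Levels were graded along the ranking, with cells split into members ranked above and below their median, other cells with a ranking UMI, and other cells without one. Whether a cell shows a ranking UMI depends on its depth. These classes were not matched in depth, and its part in the grading was not tested. OASL had 132 CPM in the 349 members of Drug_Radiation ranked highest and 60.9 CPM in the other 350 members, against 23.5 CPM in the 2016 other cells with a ranking UMI and 14.4 CPM in the 4275 without one. In Drug the same classes had 142, 26.5, 17.6 and 9.94 CPM. SOD2 had 309, 205, 123 and 84.6 CPM in these classes of Drug_Radiation, and 453, 226, 140 and 80.4 CPM in those of Drug. CDC20 had the opposite order, with 15.8, 23.1, 34.2 and 44.0 CPM in Drug_Radiation and 22.3, 41.4, 52.3 and 79.0 CPM in Drug. UMIs of single genes were spread unevenly over the members. The 70 members of Drug_Radiation with the most ISG15 held 56.1% of its UMIs, and the 38 of Drug held 67.6%. For SOD2 the same numbers of cells held 40.7% in Drug_Radiation and 37.2% in Drug, and for CXCL2, a less abundant gene, 79.8% in Drug_Radiation and 75.6% in Drug. A single member had up to 126 ISG15 UMIs in Drug_Radiation and 310 in Drug.

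The members differed among themselves by the ranking gene that had the most UMIs. These classes also differed in depth. The median was 20302 UMIs per cell in CCL5-led and 15911 in IL1B-led members of Drug_Radiation, and 21097 and 19920 in those of Drug. The part of depth in the differences below was not tested. In members led by CCL5, OASL had 130 CPM against 31.2 CPM in members led by IL1B in Drug_Radiation, and 136 against 23.0 CPM in Drug, ratios of 4.15 and 5.89. ISG15 had 390 CPM against 92.9 CPM in Drug_Radiation and 466 against 79.3 CPM in Drug, while the other cells had 88.0 CPM in Drug_Radiation and 75.1 CPM in Drug. The median log2 ratio of the interferon list over other cells was 0.61 in CCL5-led and 0.10 in IL1B-led members of Drug_Radiation, and 0.77 and 0.13 in those of Drug. CXCL2 had 127 CPM in the 26 members of Drug_Radiation led by CXCL8 and 183 CPM in the 32 of Drug, which is 12.9 and 13.9 times the other cells. SOD2 was above the other cells in both kinds, at 2.91 times in CCL5-led members and 1.84 times in IL1B-led members of Drug_Radiation, and 3.86 and 2.69 times in Drug. IL1A had 16.4 CPM in CCL5-led and 31.8 CPM in IL1B-led members of Drug_Radiation, and 27.9 CPM in CCL5-led and 40.2 CPM in IL1B-led members of Drug. MT2A had 3980 CPM in CCL5-led and 4203 CPM in IL1B-led members of Drug_Radiation, and 3634 CPM and 3057 CPM in those of Drug. The G2 and M phase list had medians of −0.28 in CCL5-led and −0.96 in IL1B-led members of Drug_Radiation, and −0.68 and −1.51 in those of Drug. TOP2A, the topoisomerase of dividing cells, had 29.7 CPM in CCL5-led and 12.1 CPM in IL1B-led members of Drug_Radiation, and 41.9 CPM and 23.4 CPM in those of Drug.

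**Figure D4:**
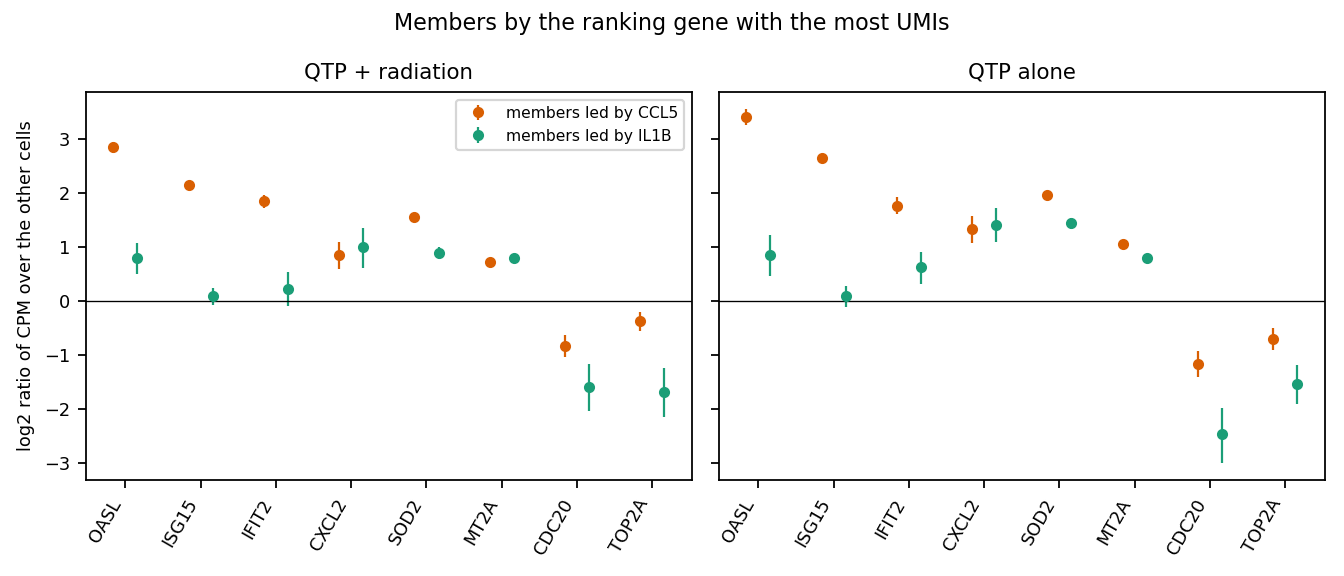
Log2 ratio of CPM over the other cells of the library for 8 genes in members in which CCL5 (orange) or IL1B (green) held the most ranking UMIs, in Drug_Radiation (left) and Drug (right), with exact 95% intervals. OASL, ISG15 and IFIT2 are higher in CCL5-led than in IL1B-led members of both libraries, and CDC20 and TOP2A are lower in the IL1B-led members.

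With CCL5 left out of the ranking and all cells kept, the interferon list had medians of 0.17 in Drug_Radiation and 0.28 in Drug, against 0.03 and 0.07 over all genes, and 5 of its genes in Drug_Radiation and 8 in Drug were past 1.5-fold. OASL then had log2 ratios of 1.24 in Drug_Radiation and 1.20 in Drug. When cells with a CCL5 UMI were removed and the rest ranked by the other 4 genes, the interferon list had medians of 0.07 in Drug_Radiation and 0.10 in Drug, against 0.03 and 0.07 over all genes. Past 1.5-fold were 1 of its genes in Drug_Radiation and 0 in Drug. OASL then had log2 ratios of 0.86 in Drug_Radiation and 0.10 in Drug, and ISG15 had 0.02 in Drug_Radiation and 0.07 in Drug. SOD2 had 0.70 in Drug_Radiation and 1.02 in Drug, and the G2 and M phase list −0.61 in Drug_Radiation and −0.59 in Drug. This selection was chosen after the data were seen, and it takes cells with CCL5, itself a known interferon target, out of both sides. It also changed depth: the chosen cells had a median of 13486 UMIs against 17748 in the rest of Drug_Radiation, and 20430 against 20135 in Drug. With CCL5 left out and all cells kept, the medians in Drug_Radiation were 15474 and 18246. The part of depth was not tested. Of all members, 25.3% in Drug_Radiation were also in the top 10% of cells by the interferon list, against 8.30% of other cells, and in Drug 22.1% of members against 8.65% of other cells. The share was 34.7% among CCL5-led and 11.7% among IL1B-led members of Drug_Radiation, and 33.8% and 7.21% in those of Drug. In the top 10% by metallothionein genes were 23.5% of members against 8.50% of other cells in Drug_Radiation, and 23.7% against 8.47% in Drug. By lysosome genes it was 21.0% of members against 8.77% in Drug_Radiation, and 23.9% against 8.45% in Drug.

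The same ranking was applied to the libraries without QTP, whose cells are shallower. In Control under 10% of cells held a ranking UMI, so the 192 cells with one were taken, and in Radiation the top 242. The chosen cells were deeper, with a median of 5791 UMIs per cell against 5261 in the rest of Radiation and 3637.5 against 2266 in Control. OASL had 38.2 CPM in the chosen cells against 11.9 CPM in the rest of Radiation, a ratio of 3.22 (2.34 to 4.39), and 58.0 against 11.9 CPM in Control, a ratio of 4.88 (3.35 to 7.02). ISG15 and SOD2 had ratios of 2.13 and 2.05 in Radiation and 3.58 and 2.88 in Control. CDC20 had 0.360 (0.243 to 0.515) in Radiation and 0.505 (0.317 to 0.768) in Control. CXCL2 had 1.22 (0.586 to 2.31) in Radiation and 0.907 (0.284 to 2.24) in Control, with intervals that span 1. OASL, ISG15, SOD2 and CDC20 had the same direction in the libraries without QTP, and the difference between libraries with and without it was not tested.

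Between the QTP libraries the member ratios were correlated: across 9852 genes Pearson's r was 0.732 and Spearman's rho 0.644, as a description over genes. Of 4965 genes with at least 20 CPM, 6 had a ratio 1.5-fold higher in Drug_Radiation than in Drug (0.121%) and 4 lower (0.0806%). CCNB1, the mitotic cyclin, and AURKB, a mitotic kinase, were among the 6: CCNB1 had 24.7 CPM in members against 37.7 CPM in Drug_Radiation, and 27.5 CPM in members against 67.4 CPM in Drug. The other 4 were TSACC, NR1D2, PTPN9 and NPPB, the B-type natriuretic peptide. TSACC had 49.3 CPM in members against 49.4 CPM in Drug_Radiation, and 18.3 CPM in members against 45.9 CPM in Drug, a difference of the log2 ratios of 1.28. The 4 lower ones were HMOX1, heme oxygenase, ERRFI1, an inhibitor of the EGF receptor, SESN2, a stress sensor, and GDF15, a stress-induced cytokine, with differences of −0.68, −0.64, −0.64 and −0.59. GDF15 had 394 CPM in members against 388 CPM in other cells of Drug_Radiation, and 389 CPM in members against 254 CPM in other cells of Drug. The 20 CPM filter left out some genes named above whose differences were past 1.5-fold. CCL26, CXCL2 and SERPINA3 had −0.65, −0.61 and −0.68, and KIF20A, CDCA3 and PLK1 had 0.65, 0.68 and 0.63. Others left out by it were not past that size, such as IFIT1 at 0.19 and TNFAIP3 at −0.17. Without replicate libraries these differences have no check.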

How the data were processed

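The deposited values are raw UMI counts per gene and barcode, with no normalization by the authors in them. The submitters' processing notes name hg38 and Seurat 4.3.3 without a role, and neither aligner, annotation nor counted strand is stated in the labels, so antisense, overlapping or near-identical genes cannot be told apart. The kit is labelled PIPseq V T2 3′ while another label names 10x Genomics.

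Barcodes at 20% or more mitochondrial UMIs were left out (16 in Drug_Radiation, 4 in Drug). The lowest totals kept were 6244 and 6427 UMIs. No doublet caller was run. Total UMIs were 149368293 in Drug_Radiation, 90903552 in Drug, 14859709 in Radiation and 9249567 in Control. Counts were summed per group of cells and scaled to nuclear-encoded UMIs. Calls used log2 ratios after adding 1 CPM, at a filter of 5 CPM over all cells (20 CPM for the difference between libraries). Printed ratios of named genes have no added CPM. Intervals were exact Poisson for CPM, exact conditional binomial for ratios and Clopper-Pearson for shares.

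Named genes were the 15 with the largest and 10 with the most negative value of the smaller log2 ratio, 6 differences in each direction, tested genes of 4 inflammatory lists, up to 4 examples per list and 29 fixed genes. Genes under other observations, and CXCL2 in CXCL8-led members, were chosen after their values were seen. The members and all 33 lists were chosen with earlier results of these data known. Python 3.11.15 with scipy 1.17.1 was used, with scaling factors from edgeR 4.0.16 and DESeq2 1.42.0. Promoters came from RefSeq (GRCh38.p14). The method was tested on simulated data. Of 25 alternatives, 3 were added after seeing the data. No test was made, since each group is 1 library.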

Additional observations from a re-analysis of the deposited data

Results flagged for a closer look

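NR1D2, a circadian nuclear receptor, had 35.4 CPM in members against 31.0 CPM in other cells of Drug_Radiation, and 24.5 CPM in members against 36.3 CPM in other cells of Drug. Its log2 ratios had opposite signs, 0.18 in Drug_Radiation and −0.55 in Drug, a difference of 0.73. PTPN9, a tyrosine phosphatase, had 26.5 CPM in members against 21.8 CPM in Drug_Radiation, and 16.1 CPM in members against 21.9 CPM in Drug, with log2 ratios of 0.27 and −0.42, a difference of 0.69. Both stood out because members lay above the other cells in one library and below them in the other. These differences were not tested, since each group is 1 library.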

How the results depend on the processing

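Each library stands for its group, so no alternative replaces a replicate, and depth limits genes of few UMIs. No paired analysis was possible because each group has 1 library. In all, 25 alternatives were computed for ratios and counts, and fewer for shares, levels and lists with few genes. Of 10850 ratios of named genes, 9003 moved within counting error, 1842 moved by more and 5 changed sign. Sign changes were counted only for genes called in that library. Any sign change of another ratio is among the 9003 and 1842. The 5 were all under the ranking by the other 4 genes among cells without a CCL5 UMI: NPPB at 0.0031, OAS1 at −0.15 and SAMD9 at −0.026 in Drug_Radiation, and IFITM1 at −0.19 and SAMD9 at −0.16 in Drug (log2). Counts of called genes, against 99 higher and 26 lower in Drug_Radiation, 284 and 96 in Drug, 81 and 22 in both, and 10 for the difference, moved by over 1.5 times as follows, and the causes were not tested. The top 5% gave 164 higher and 58 lower in Drug_Radiation, 170 lower in Drug, 45 lower in both and 30 for the difference. The top 20% gave 58 higher in Drug_Radiation, 167 higher and 55 lower in Drug and 1 for the difference. Ranking without IL1B gave 5 lower in Drug_Radiation, 51 lower in Drug, 2 lower in both and 6 for the difference. Ranking without CCL5 gave 46 higher and 51 lower in Drug_Radiation, 39 higher and 45 lower in both and 6 for the difference. Ranking without CXCL8 gave 34 lower in both. Ranking on cells thinned to 6000 UMIs gave 61 higher and 9 lower in Drug_Radiation, 7 lower in both and 3 for the difference. The top 10% within each of 10 depth classes gave 36 lower in both and 5 for the difference. Other cells matched in UMIs gave 16 lower in Drug_Radiation, 13 lower in both and 22 for the difference. Leaving out the 5% of cells with the most UMIs gave 35 lower in both. TMM scaling gave 57 higher and 47 lower in Drug_Radiation, 136 higher and 161 lower in Drug and 49 higher and 45 lower in both. Median-of-ratios scaling gave 56 higher and 51 lower in Drug_Radiation, 132 higher and 176 lower in Drug and 48 higher and 48 lower in both. A pseudocount of 0.1 CPM gave 34 lower in both. A pseudocount of 5 CPM gave 60 higher and 6 lower in Drug_Radiation, 173 higher and 63 lower in Drug and 5 lower in both. A filter of 20 CPM gave 40 higher and 8 lower in Drug_Radiation, 113 higher and 34 lower in Drug and 37 higher and 8 lower in both. A filter of 1 CPM gave 204 higher and 60 lower in Drug_Radiation, 561 higher and 172 lower in Drug and 141 higher and 34 lower in both. A size of 2-fold gave 28 higher and 1 lower in Drug_Radiation, 51 higher and 34 lower in Drug, 25 higher and 1 lower in both and 1 for the difference. Ranking by CCL5 alone gave 59 higher and 7 lower in Drug_Radiation, 158 higher and 32 lower in Drug, 50 higher and 2 lower in both and 5 for the difference. Ranking by the other 4 genes among cells without a CCL5 UMI gave 36 higher and 51 lower in Drug_Radiation, 142 higher and 54 lower in Drug, 25 higher in both and 5 for the difference. Leaving out cells with G2 and M phase genes at 1% or more gave 12 lower in Drug_Radiation and 10 lower in both. The share of Drug members in the G2 and M phase class (0.789%) was 2.37% ranked without IL1B and 2.89% ranked by CCL5 alone, past its counting interval, and 0.526% to 1.97% under the others except the one that removes the class. In Drug_Radiation (0.286%) it was 0.572% or lower. Of the 22 genes lower in both, 2 were shared with the ranking without IL1B, 2 with CCL5 alone and 6 with the thinned ranking. Over the alternatives the interferon list median ranged between 0.07 and 0.62 in Drug_Radiation and between 0.10 and 1.04 in Drug, and the G2 and M phase list median between −0.72 and −0.23 in Drug_Radiation and between −1.32 and −0.37 in Drug.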

Other observations

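Of the 81 genes higher in members of both libraries, 38 were on no list. AIM2, a sensor of cytosolic DNA, had 13.3 CPM in members against 4.93 CPM in other cells of Drug_Radiation, and 16.9 CPM in members against 7.79 CPM in Drug. ZC3HAV1, an antiviral protein that binds viral RNA, had ratios of 1.61 in Drug_Radiation and 1.70 in Drug. APOL1, an apolipoprotein known to be induced by interferon, had 1.89 in Drug_Radiation and 1.66 in Drug. C1R and C1S, the proteases of the classical complement pathway, had ratios of 1.58 and 1.53 in Drug_Radiation and 1.99 and 1.89 in Drug. SLPI, a secreted inhibitor of neutrophil elastase, had 163 CPM in members against 94.0 CPM in Drug_Radiation, and 206 CPM in members against 94.9 CPM in Drug. KRT17, a keratin of stressed epithelium, had ratios of 2.21 in Drug_Radiation and 2.05 in Drug, in the opposite direction to KRT8 and KRT18. S1PR3, a receptor for sphingosine 1-phosphate, had 2.27 in Drug_Radiation and 2.33 in Drug.

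Of the death regulators, PMAIP1, the BH3-only protein NOXA, had 187 CPM in members against 94.6 CPM in Drug_Radiation, a ratio of 1.98 (1.90 to 2.07). In Drug it had 220 CPM in members against 103 CPM, a ratio of 2.14 (2.04 to 2.25). The 24 genes of that list had a median log2 ratio of 0.08 in Drug_Radiation and 0.09 in Drug. ANGPTL4, a lipase inhibitor, had ratios of 2.13 in Drug_Radiation and 2.50 in Drug, while 23 of 37 hypoxia and glycolysis genes lay above the all-gene median in both libraries and 14 below it. FOS, an immediate early factor, had 7.67 CPM in members against 5.22 CPM in Drug_Radiation, and 16.6 CPM in members against 4.70 CPM in Drug. These genes were chosen after their values were seen.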
